A study of Mus musculus with 12 samples.

Results

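The immunoglobulin kappa variable (V) genes were examined in bulk RNA-seq libraries of mouse lung cells sorted for Pdgfra. They were taken as every gene annotated as an immunoglobulin V gene whose symbol begins with Igkv, which gave 100 of the 40760 counted genes, and all 12 libraries were used. The family was chosen because immunoglobulin counts differed between the groups, so its levels, evenness and usage in the 4 groups are given as descriptions without a test. The 100 genes were located in the Igk locus on chromosome 6 of the mouse genome GRCm38, in 20 subgroups of related sequence.

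A kappa light chain is encoded by a V gene that a developing B cell joins to one of a few J segments, with a single constant gene, Igkc, behind them. Most B cells express one light chain, so the V genes read in a population reflect both which rearranged cells it holds and their immunoglobulin RNA content, which bulk reads do not separate. Plasma cells, the antibody-secreting descendants of B cells, carry far more immunoglobulin RNA than resting B cells, and an expanded clone adds reads to one V gene.

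Groups were defined by genotype and treatment, and each held 3 libraries. WT mice and Pear1-/- mice each received either vehicle or bleo. All cells came from the lungs of male mice and were sorted by flow cytometry for CD140a, the protein encoded by Pdgfra. In the Pear1-/- mice a knockout-first cassette, which traps the transcript, was inserted in an intron of Pear1, a receptor gene, and bleo was bleomycin given as an aerosol into the trachea to induce lung fibrosis. The study used young adult mice unless it states otherwise, its methods do not tie a dose or a day of bleo to these libraries, the gate described for them is positive selection for Pdgfra, and the number of mice behind a library is not given, so the spread between replicates may be technical and p-values measure only the spread between these libraries.

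Between 6702948 and 10447101 reads were counted per library, and a floor of 3 counts corresponded to 0.287 to 0.448 CPM (counts scaled to the library total) and covers counting error only. Pear1 itself had 58.9 to 70.9 CPM in WT vehicle, 53.9 to 57.5 among Pear1-/- vehicle libraries, 26.8 to 29.95 in WT bleo and 38.3 to 41.4 in Pear1-/- bleo, so it was not lower in the bleo libraries labelled Pear1-/- than in WT bleo and the genotypes below are those of the labels. Of the sorted cell's defining markers, Pdgfra was present at 150 to 591 CPM in every library, and the leukocyte marker Ptprc at 361 to 868 CPM. The usage of Igkv genes in WT vehicle replicate 2 stood apart from that in replicates 1 and 3 and matched that of the libraries labelled Pear1-/- vehicle. The labels were kept, and the main results in which WT vehicle takes part are given with and without that library.

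The sequences below are those of the genes that led the reads of at least 1 library, Igkv1-110, Igkv3-10, Igkv4-59 and Igkv10-96, together with Igkv12-46, which came second in WT bleo, and Igkv4-61, which was among the leading genes of the vehicle groups and almost without reads in WT bleo. Each was cut from the GENCODE M21 transcript of the gene and runs 5′ to 3′ from the codon of the first cysteine of the V domain to the end of the V segment. Capitals mark the bases after the codon of the second cysteine, the germline contribution to the third complementarity-determining region, where the J segment is joined.
Igkv1-110: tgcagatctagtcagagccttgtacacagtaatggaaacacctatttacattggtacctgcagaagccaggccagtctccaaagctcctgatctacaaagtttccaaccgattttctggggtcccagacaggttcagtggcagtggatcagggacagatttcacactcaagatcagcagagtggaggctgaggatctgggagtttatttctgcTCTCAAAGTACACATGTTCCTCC
Igkv3-10: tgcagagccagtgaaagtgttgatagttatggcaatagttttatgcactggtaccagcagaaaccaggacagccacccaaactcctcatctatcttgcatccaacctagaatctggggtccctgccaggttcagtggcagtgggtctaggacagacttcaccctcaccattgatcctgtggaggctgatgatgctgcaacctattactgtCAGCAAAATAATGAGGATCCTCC
Igkv10-96: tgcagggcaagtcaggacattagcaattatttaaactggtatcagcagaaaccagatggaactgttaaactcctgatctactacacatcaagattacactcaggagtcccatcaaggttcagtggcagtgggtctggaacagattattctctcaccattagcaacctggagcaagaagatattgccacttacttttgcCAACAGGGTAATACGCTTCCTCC
Igkv12-46: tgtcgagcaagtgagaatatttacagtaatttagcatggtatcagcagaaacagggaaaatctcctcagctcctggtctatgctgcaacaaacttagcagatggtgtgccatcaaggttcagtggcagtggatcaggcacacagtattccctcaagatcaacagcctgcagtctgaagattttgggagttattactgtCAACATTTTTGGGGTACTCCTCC
Igkv4-59: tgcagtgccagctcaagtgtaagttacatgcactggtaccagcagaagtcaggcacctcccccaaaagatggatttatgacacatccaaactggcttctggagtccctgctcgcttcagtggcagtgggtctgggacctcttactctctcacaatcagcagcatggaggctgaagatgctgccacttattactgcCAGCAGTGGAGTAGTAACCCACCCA
Igkv4-61: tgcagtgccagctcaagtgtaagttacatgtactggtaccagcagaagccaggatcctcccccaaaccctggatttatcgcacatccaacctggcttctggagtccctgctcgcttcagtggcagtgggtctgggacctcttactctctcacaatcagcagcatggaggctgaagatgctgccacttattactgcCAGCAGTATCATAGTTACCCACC

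The printed stretches lie in the V exons at chr6:68271032-68271267 on the plus strand for Igkv1-110 and at chr6:70572998-70573230 on the plus strand for Igkv3-10. On the minus strand they lie at chr6:68631963-68632183 for Igkv10-96, chr6:69764523-69764743 for Igkv12-46, chr6:69438218-69438437 for Igkv4-59 and chr6:69416895-69417112 for Igkv4-61. From the first to the second cysteine codon, Igkv4-59 and Igkv4-61 of the same subgroup were identical at 185 of 195 bases, whereas Igkv12-46 and Igkv10-96 of different subgroups were identical at 134 of 198. Over the 100 genes the germline part in capitals was between 18 and 29 bases long, 23 bases in 69 genes and 25 in 16, with 88 different sequences.

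Because the genes resemble each other, reads can be hard to assign. Of the 50-base windows of a gene's longest transcript, a median of 24.8% per gene also occurred in another Igkv gene or pseudogene, 24 genes shared no such window and 15 shared more than 50% of theirs. The highest share was 74.3%, in Igkv4-59, while Igkv1-110 had 50.9%, Igkv3-10 53.5%, Igkv4-61 52.0%, Igkv10-96 32.6% and Igkv12-46 9.76%. How the authors' counting split reads between such genes is not given in the sources used here, so the level of a single gene among close relatives is uncertain.

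The Igkv genes together took 1.42%, 1.99% and 1.33% of the counted reads in WT vehicle replicates 1, 2 and 3. They took 1.85%, 1.92% and 2.24% among Pear1-/- vehicle libraries, 0.259%, 0.270% and 0.275% in WT bleo, and 1.05%, 0.986% and 1.01% in Pear1-/- bleo. WT bleo therefore lay below all other libraries, Pear1-/- bleo lay between WT bleo and both vehicle groups, and the vehicle groups overlapped through WT vehicle replicate 2. In bulk libraries fewer cells of a type and less RNA per cell cannot be told apart.

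The log2 ratio of the group means of summed Igkv CPM was -2.56 for WT bleo over WT vehicle, from 2680 ± 83.4 against 15801 ± 3571 CPM (SD, n = 3), and -2.36 without WT vehicle replicate 2. For Pear1-/- bleo over Pear1-/- vehicle it was -0.98, from 10156 ± 301 against 20015 ± 2098 CPM. For Pear1-/- bleo over WT bleo it was 1.92. For Pear1-/- vehicle over WT vehicle it was 0.34 with all libraries and 0.54 without WT vehicle replicate 2. All 4 differences describe the measure by which the genes were chosen.

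**Figure D1:**
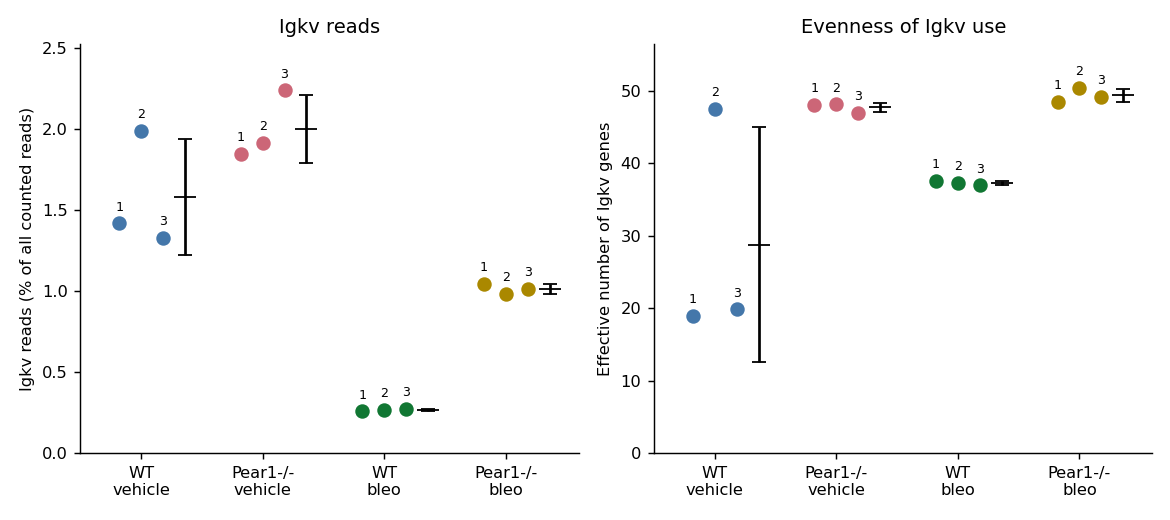
Igkv reads as a percentage of all counted reads (left) and the effective number of Igkv genes (right) in each library, with replicate numbers beside the points and the group mean ± SD (n = 3) as a black bar to the right of each group. WT bleo is lowest in reads at 0.259% to 0.275%, whereas WT vehicle replicates 1 and 3 are lowest in evenness at 18.9 and 19.9.

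Evenness was described by the effective number of genes, the exponential of the Shannon entropy of the shares, which equals the number of equally used genes that would give the same entropy. It was 18.9, 47.5 and 19.9 in WT vehicle replicates 1, 2 and 3 and 48.0, 48.1 and 46.9 in Pear1-/- vehicle. It was 37.6, 37.3 and 37.0 in WT bleo and 48.5, 50.3 and 49.1 in Pear1-/- bleo. The groups other than WT vehicle did not overlap with WT vehicle replicates 1 and 3, and within each of them the libraries differed by less than 2 effective genes. WT bleo, which had the fewest Igkv reads, was more even than WT vehicle replicates 1 and 3.

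The means were 28.8 ± 16.2 effective genes (SD, n = 3) in WT vehicle, 47.7 ± 0.656 among Pear1-/- vehicle libraries, 37.3 ± 0.306 in WT bleo and 49.3 ± 0.947 in Pear1-/- bleo. Without replicate 2 the WT vehicle mean was 19.4. WT bleo exceeded WT vehicle by 8.504 effective genes on average, less than the SD of WT vehicle, and the sign of this difference turned to -0.21 with each library's leading gene left out. The inverse Simpson number, which weights the most used genes more, gave 6.75, 34.7 and 7.38 in WT vehicle, 34.3 to 35.8 among Pear1-/- vehicle libraries, 22.5 to 22.6 in WT bleo and 33.8 to 37.2 in Pear1-/- bleo. Computed at the smallest Igkv read total of 23603, the effective number was 18.9, 47.4 and 19.8 in WT vehicle, 46.8 to 48.0 among Pear1-/- vehicle libraries, 37.0 to 37.6 in WT bleo and 48.4 to 50.3 in Pear1-/- bleo, so the groups kept their order at equal depth.

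The number of genes that together held 50% of the Igkv reads was 4, 12 and 4 in WT vehicle, 12 in each Pear1-/- vehicle library, 9 in each WT bleo library, and 14, 15 and 14 in Pear1-/- bleo. Of the 100 genes, 71 were over 3 counts in all 12 libraries and 26 in some. The 3 that never were, Igkv2-137, Igkv8-26 and Igkv20-101-2, are named because of that. In WT bleo 75 genes were over 3 counts in all 3 libraries, compared with 81 in WT vehicle and 90 in each Pear1-/- group.

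**Figure D2:**
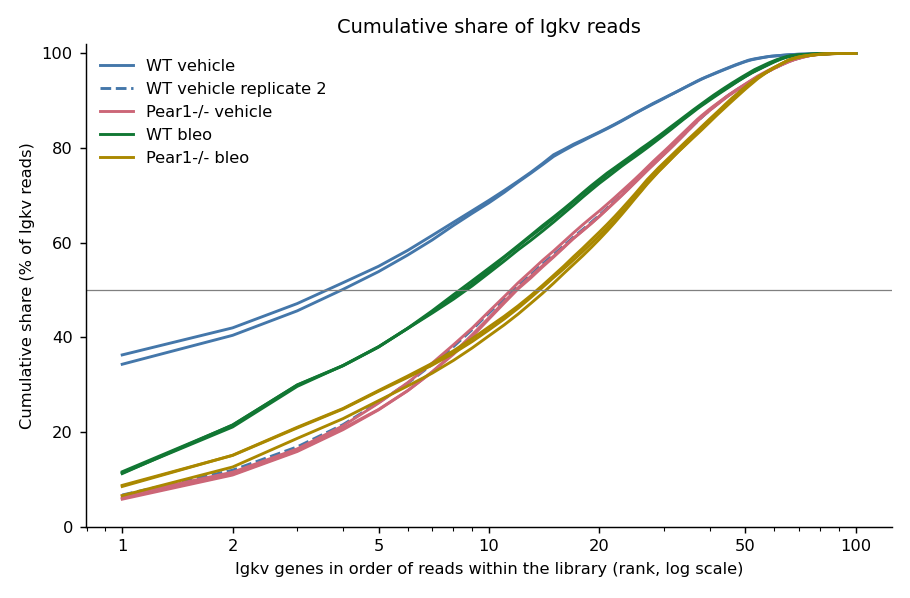
Cumulative share of the Igkv reads (%, vertical axis) against the rank of the gene within its library (log scale), one line per library coloured by group, with WT vehicle replicate 2 dashed and the grey line at 50%. The curves of WT vehicle replicates 1 and 3 start at 36.3% and 34.3%. WT vehicle replicate 2 starts at 6.71%, slightly above the Pear1-/- vehicle curves, which start at 5.83% to 6.59%.

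A single gene held the largest share by far in WT vehicle replicates 1 and 3. Igkv1-110 (ENSMUSG00000093861) took 36.3% of the Igkv reads in replicate 1 and 34.3% in replicate 3, but 5.25% in replicate 2. It took 3.99%, 3.95% and 4.80% among Pear1-/- vehicle libraries, 8.52%, 8.41% and 8.57% in WT bleo, and 8.51%, 6.04% and 8.75% in Pear1-/- bleo. In reads this was 34559, 9512 and 32167 counts in WT vehicle against 7207 to 9363 in Pear1-/- vehicle. With the leading gene of each library left out, the effective number was 36.2 and 35.6 in WT vehicle replicates 1 and 3 and 48.2 in replicate 2, so part of the gap between them remained.

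The closest relative of Igkv1-110 was Igkv1-117, identical at 207 of 213 bases between the cysteine codons. Igkv1-117 took 5.72%, 3.74% and 6.11% in WT vehicle and between 3.75% and 4.41% in the other 9 libraries. The ratio of Igkv1-110 to Igkv1-117 ranged from 0.988 to 6.35 over the libraries, so the share of Igkv1-110 varied far more than that of its most similar gene. Igkv2-109, the next gene in the order of WT vehicle replicates 1 and 3, took 5.13% and 5.17% there, 1.20% in replicate 2 and 0.801% to 1.05% in the other groups. Igkv16-104 had the same pattern in WT vehicle, with 4.41% and 4.54% against 0.820% in replicate 2, and 0.537% to 0.700% in Pear1-/- vehicle.

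Other genes were lower in WT vehicle replicates 1 and 3 than in every other vehicle library. Igkv6-23 took 0.499% and 0.494% in them, 4.06% in replicate 2 and 3.99% to 4.31% in Pear1-/- vehicle. Igkv4-57 took 0.337% and 0.363%, against 3.503% in replicate 2 and 3.51% to 3.94% in Pear1-/- vehicle. Igkv1-135 took 0.794% and 0.804%, against 3.59% in replicate 2 and 3.54% to 3.73% in Pear1-/- vehicle. Ratios between replicate 2 and the mean of replicates 1 and 3 were taken for the 81 genes over 3 counts in all 3 libraries. The largest, 67.9, was that of Igkv4-62, named because of that value, which had 9 and 11 counts in replicates 1 and 3 and 1305 in replicate 2. The vehicle libraries thus fell into a set of 2 and a set of 4 that crossed the genotype labels.

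Among the 81 genes over 3 counts in all 3 WT vehicle libraries, replicate 2 had a share more than 2-fold above the mean of replicates 1 and 3 in 43 and more than 2-fold below it in 9. Against the mean of the libraries labelled Pear1-/- vehicle, replicate 2 had a share within 2-fold for all 89 genes over the floor in those 4 libraries, the ratios running from 0.649 to 1.32. The Bray-Curtis distance of usage, which is 0 for identical shares and 1 for none in common, was 0.028 between WT vehicle replicates 1 and 3, and 0.485 and 0.476 between replicate 2 and each of them. Between WT vehicle replicate 2 and the libraries labelled Pear1-/- vehicle it was 0.025 to 0.032, about the size of the 0.018 to 0.032 found among those libraries, although 2 of the 3 distances were slightly larger than any of those. Pear1 had 70.9, 58.9 and 64.4 CPM in WT vehicle replicates 1, 2 and 3, and 53.9 to 57.5 CPM in the libraries labelled Pear1-/- vehicle. Among the bleo libraries Pear1 was higher in those labelled Pear1-/-, so its level does not mark the genotype. A cause of the likeness in usage between replicate 2 and Pear1-/- vehicle was not tested.

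**Figure D3:**
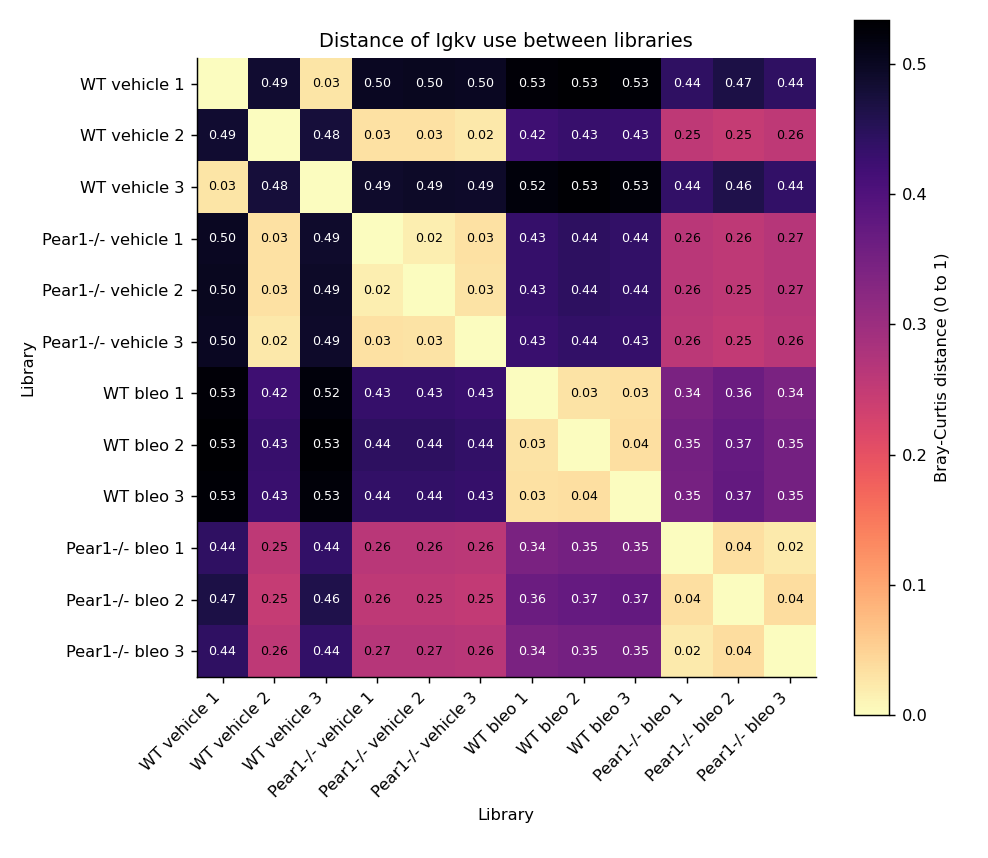
Bray-Curtis distance of Igkv usage (0 for identical shares, 1 for none in common) for every pair of the 12 libraries, with the value in each cell and darker cells for larger distances. WT vehicle 2 is 0.025 to 0.032 from the Pear1-/- vehicle libraries and 0.476 or more from WT vehicle 1 and 3.

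Outside WT vehicle, libraries of one group were close in usage, at 0.030 to 0.035 in WT bleo and 0.023 to 0.036 in Pear1-/- bleo. A chi-square of the Igkv counts, divided by its degrees of freedom so that counting noise alone would give 1, was 1.25 to 1.52 among WT bleo libraries, 2.23 to 7.37 among Pear1-/- vehicle, 2.48 to 7.55 among Pear1-/- bleo and 2.96 between WT vehicle replicates 1 and 3. It was 868 and 813 between WT vehicle replicate 2 and the other libraries of its group. Igkv1-110 made up 67.0% and 73.8% of the chi-square between Pear1-/- bleo replicate 2 and the other libraries of its group. Libraries of different groups, WT vehicle replicate 2 apart, were 0.252 or more from each other, so usage differed between groups by several times the distance within them. No distance carries a test.

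WT bleo gave larger shares to a few genes than any other group. Igkv4-59 led all 3 libraries, with 11.6%, 11.2% and 11.4% of the Igkv reads, compared with 1.87%, 4.01% and 1.89% in WT vehicle, 3.76% to 4.13% in Pear1-/- vehicle and 2.14% to 2.26% in Pear1-/- bleo. Igkv12-46 took 9.83%, 10.3% and 9.72% in WT bleo, 0.298%, 1.80% and 0.291% in WT vehicle, 1.79% to 1.96% in Pear1-/- vehicle and 2.18% to 2.29% in Pear1-/- bleo. Igkv4-91 took 3.94% to 3.98% in WT bleo and at most 1.53% in any other library. The 3 genes had the largest rises of mean share between WT vehicle and WT bleo. That their shares in WT bleo did not overlap with the other groups is therefore no separate result.

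Shares and counts did not always move together. Igkv4-59 had 2917, 2652 and 2745 counts in WT bleo, 1784, 7268 and 1769 in WT vehicle, and 2338, 2201 and 2160 in Pear1-/- bleo. These counts are not scaled for depth, and WT vehicle replicates 1 and 3 had smaller library totals, 6702948 and 7036892 counts, than the bleo libraries with 8732810 to 10447101. Igkv12-46 had 2467, 2429 and 2346 counts in WT bleo, 284, 3272 and 273 in WT vehicle, and 2289, 2347 and 2193 in Pear1-/- bleo, so that against WT vehicle replicates 1 and 3 its counts were higher as well. The family as a whole had 25085, 23603 and 24145 reads in WT bleo against 104843, 103020 and 95566 in Pear1-/- bleo, whereas Igkv4-59 and Igkv12-46 had similar or higher counts in WT bleo.

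Of the 71 genes over 3 counts in all 6 libraries of WT bleo and WT vehicle, Igkv4-61 had the lowest ratio of shares between them. It had 10, 22 and 8 counts there, or 0.0399%, 0.0932% and 0.0331% of the Igkv reads, against 2092, 8481 and 2084 counts in WT vehicle, 8329, 9040 and 9521 in Pear1-/- vehicle and 1701, 1839 and 1563 in Pear1-/- bleo. Its mean share in Pear1-/- bleo was 30.3 times that in WT bleo, the largest such ratio among the 74 genes over 3 counts in all 6 libraries. Its closest relative, Igkv4-68, identical at 193 of 195 bases, had 239, 228 and 212 counts in WT bleo, with 787, 716 and 743 in Pear1-/- bleo. As shares of the Igkv reads these were 0.953%, 0.966% and 0.878% in WT bleo against 0.751%, 0.695% and 0.777% in Pear1-/- bleo, so by share the 2 genes differed in opposite directions. Igkv8-21 was also low in WT bleo, at 0.280% to 0.389%, against 3.47% to 5.11% in every other library.

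The relative of Igkv4-59 closest in sequence, Igkv4-70, was identical at 192 of 195 bases and carried 1.52%, 1.43% and 1.53% of the reads in WT bleo, 0.00736% and 0.0107% in WT vehicle replicates 1 and 3, and 0.241% to 0.312% in replicate 2 and Pear1-/- vehicle. Igkv4-59 and Igkv4-70 were thus both at their highest share in WT bleo. Their reads cannot be fully separated by sequence. Igkv12-44, identical to Igkv12-46 at 188 of 198 bases, took 2.68% to 2.85% in WT bleo and 2.504% to 2.69% in Pear1-/- bleo, a narrower range than that of Igkv12-46.

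Pear1-/- bleo was led by Igkv1-110 in replicates 1 and 3 and by Igkv10-96 in replicate 2. Igkv10-96 took 6.602%, 6.58% and 6.33% there, 1.42%, 1.42% and 1.37% in WT bleo, 4.92% to 5.02% in Pear1-/- vehicle and WT vehicle replicate 2, and 2.44% and 2.57% in WT vehicle replicates 1 and 3. Igkv6-15 took 5.91%, 6.05% and 5.80% in Pear1-/- bleo against 2.33% to 2.45% in Pear1-/- vehicle and 3.83% to 4.07% in WT bleo. Both were higher in share in each Pear1-/- bleo library than in any other library, and both are among the rises of share by which genes were named.

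Igkv3-10 was the first gene of the Pear1-/- vehicle libraries, with 5.83%, 6.08% and 6.59%, and of WT vehicle replicate 2, with 6.71%. It took 2.78% and 3.19% in WT vehicle replicates 1 and 3 and 0.669% to 1.002% in the 6 bleo libraries. Its closest relative Igkv3-5, identical at 206 of 210 bases, went the other way in Pear1-/- bleo, with 1.97%, 2.08% and 1.86% against 0.412% to 0.455% in Pear1-/- vehicle. Igkv4-61 and Igkv4-57-1 followed Igkv3-10 among the falls of share between Pear1-/- vehicle and Pear1-/- bleo, from 4.73% ± 0.133 to 1.68% ± 0.0904 and from 3.28% ± 0.144 to 1.10% ± 0.059 (SD, n = 3).

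**Figure D4:**
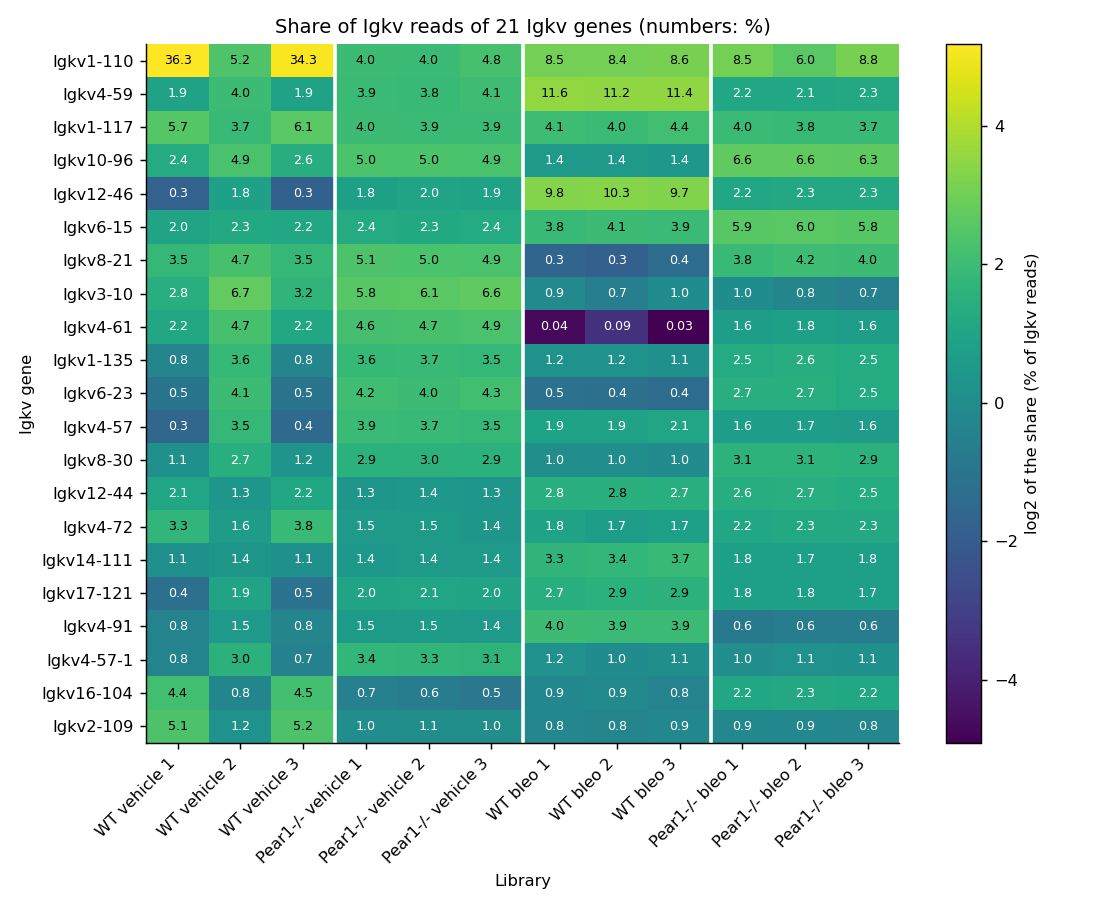
Share of the Igkv reads (%, number in each cell) of 21 Igkv genes, rows in order of their mean share over the 12 libraries, coloured on a log2 scale. Igkv1-110 stands out in WT vehicle 1 and 3, Igkv4-59 and Igkv12-46 in WT bleo, and Igkv4-61 is at 0.0331% to 0.0932% in WT bleo.

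The remaining genes named by the same rule had smaller shares. Igkv8-30 took 2.74% to 3.10% in Pear1-/- bleo, Pear1-/- vehicle and WT vehicle replicate 2, and 0.982% to 1.23% in the other 5 libraries. Igkv14-111 took 3.26% to 3.69% in WT bleo and 1.10% to 1.78% elsewhere, and Igkv17-121 took 2.74% to 2.94% in WT bleo against 0.442% to 2.07% elsewhere. Igkv4-72 ranged from 1.36% to 3.75%, with the highest values in WT vehicle replicates 1 and 3. The 20 genes with the largest mean share held 63.2% of the reads, and 19 of them were also among the first 20 when counts were divided by exonic length.

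By subgroup, subgroup 4 with 26 genes and subgroup 1 with 10 genes had the largest mean shares over the 12 libraries, 21.4% and 18.5%. The order differed between libraries, as subgroup 1 exceeded subgroup 4 in WT vehicle replicates 1 and 3, subgroup 12 exceeded subgroup 1 in each WT bleo library, and subgroup 6 exceeded subgroup 1 in Pear1-/- bleo replicate 2. Subgroup 1 took 43.0% and 41.5% in WT vehicle replicates 1 and 3 and 12.4% to 15.5% in the other 10 libraries. Subgroup 12 with 6 genes took 18.3%, 18.9% and 17.7% in WT bleo and 4.55% to 6.82% elsewhere. Subgroup 6 with 9 genes took 14.4% ± 0.281 in Pear1-/- bleo (SD, n = 3), above 10.3% ± 0.347 in Pear1-/- vehicle and 6.72% ± 0.107 in WT bleo. The differences between groups were therefore present after reads of similar genes were summed.

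The genes span 3148.68 kb, from 18.4 to 3166 kb from Igkj1, the first J segment. The J segments and Igkc lie on the plus strand, so that minus-strand V genes, 62 of the 100, join by inversion and plus-strand genes by deletion. The 38 plus-strand genes took 63.5% and 62.7% of the reads in WT vehicle replicates 1 and 3, and 36.2% to 42.3% in the other 10 libraries. The 40 genes within 1000 kb of Igkj1 took 24.0% and 24.7% in WT vehicle replicates 1 and 3, 38.2% to 39.1% in replicate 2 and Pear1-/- vehicle, 34.1% to 34.3% in WT bleo and 40.02% to 41.6% in Pear1-/- bleo. Igkv1-110, with 36.3% and 34.3% of the reads of these libraries, is a plus-strand gene 2451 kb from Igkj1.

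**Figure D5:**
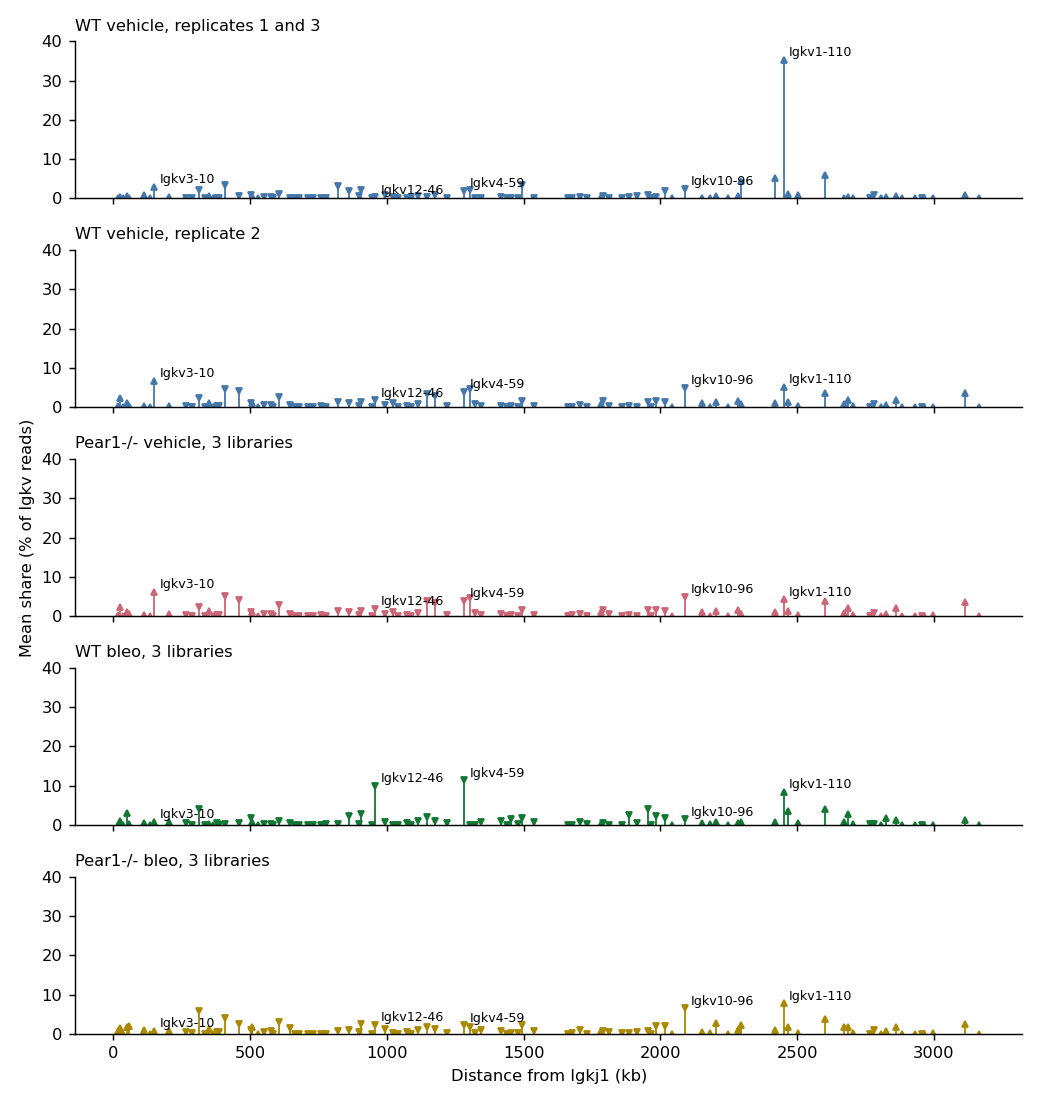
Mean share of the Igkv reads (%) of each of the 100 genes against its distance from Igkj1 (kb), with upward triangles for plus-strand and downward triangles for minus-strand genes and WT vehicle replicate 2 in a panel of its own. Reads come from genes along the whole 3148.68 kb, and 1 gene reaches above 30% only in the panel of WT vehicle replicates 1 and 3.

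The edgeR quasi-likelihood fit over 17418 genes, in which 91 of the 100 Igkv genes passed the filter on low counts, was read as a description for the Igkv genes. Calls required a change of more than 2-fold together with a Benjamini-Hochberg adjusted p under 0.05. Between WT bleo and WT vehicle 59 Igkv genes were lower and 1 higher, compared with 33.8% of all genes called in either direction, 23.3% lower and 10.5% higher, and the median log2 fold change was -2.60 for the Igkv genes and -0.07 for all genes. Between Pear1-/- bleo and Pear1-/- vehicle 24 were lower and 4 higher, against 27.7% of all genes called, 19.3% lower and 8.37% higher. Between Pear1-/- bleo and WT bleo 59 were higher and 2 lower, against 15.0% of all genes called, 6.22% higher and 8.8% lower. The comparisons share their control libraries, and the passing genes include those kept only through the group in which they were high.

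Between Pear1-/- vehicle and WT vehicle 2 Igkv genes were called, both lower, against 3.32% of all genes, 3.25% lower and 0.0689% higher, whereas without WT vehicle replicate 2 there were 74, of which 68 were higher, against 24.2% of all genes called in that fit and 2.86% higher. Without that library 45 were called between Pear1-/- bleo and Pear1-/- vehicle in place of 28, against 32.7% of all genes. For WT bleo against WT vehicle the number was then 64, of which 11 were higher, against 45% of all genes called and 11.3% higher. Between Pear1-/- bleo and WT bleo there were 78, of which 75 were higher, against 16% of all genes called and 6.54% higher. The genes in the small counts are named for that reason. The 2 lower in Pear1-/- vehicle were Igkv16-104 and Igkv4-90, and the 1 higher in WT bleo than in WT vehicle was Igkv4-81, at 34, 44 and 38 counts against 5, 1 and 7. The 2 lower in Pear1-/- bleo than in WT bleo were Igkv4-81 and Igkv12-89, and the 4 higher in Pear1-/- bleo than in Pear1-/- vehicle were Igkv18-36, Igkv4-63, Igkv8-16 and Igkv8-34.

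The rest of the immunoglobulin genes, described without a test because they too belong to the measure that chose the family, fell into the same sets of libraries. Igkc, the constant gene read with every Igkv gene, had 25696, 41375 and 25760 CPM in WT vehicle, 41972 to 44594 among Pear1-/- vehicle libraries, 4836 to 4921 in WT bleo, with 21869 to 22226 in Pear1-/- bleo. The ratio of Igkv to Igkc reads was 0.440 to 0.560 in all 12 libraries. Kappa made up 89.2% to 94.3% of the light chain V reads, and Igkv pseudogenes had 0.0648% to 0.236% as many reads as the Igkv genes. The effective number of heavy chain V (Ighv) genes was 20.96, 46.1 and 21.1 in WT vehicle, 45.8 to 46.4 among Pear1-/- vehicle libraries, 38.9 to 39.7 in WT bleo and 52.3 to 52.9 in Pear1-/- bleo. The Ighv distance of WT vehicle replicate 2 was 0.488 and 0.490 from the other WT vehicle libraries and 0.024 to 0.034 from Pear1-/- vehicle, as for the light chain.

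The constant genes of the heavy chain differed in kind as well as in amount. Igha, which encodes the heavy chain of IgA, the main class of mucosal antibody, had 31697, 46927 and 30934 CPM in WT vehicle, 47715 to 48910 among Pear1-/- vehicle libraries, 1998 to 2001 in WT bleo, with 27313 to 28008 in Pear1-/- bleo. Ighm, which encodes that of IgM, had 2013, 951 and 1923 CPM in WT vehicle, 842 to 916 among Pear1-/- vehicle libraries, 5601 to 5754 in WT bleo, with 1904 to 1927 in Pear1-/- bleo. WT bleo was the lowest group in Igha and the highest in Ighm, and the groups did not overlap in Ighm apart from WT vehicle, whose replicates 1 and 3 and replicate 2 lay near Pear1-/- bleo and Pear1-/- vehicle respectively.

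Genes of B cells and plasma cells outside the immunoglobulin loci were tested from lists of 16 B cell, 16 plasma cell and 7 light chain rearrangement or pre-B genes. In WT bleo compared with WT vehicle, 3 of the 16 B cell genes rose and none fell, where 10.5% of all genes were called higher and 23.3% lower. The median log2 fold change of the list was 0.66 against -0.07 for all genes, and without WT vehicle replicate 2 it was 0.95 against -0.21. Pou2f2, a transcription factor of B cells, rose by 2.10 (standard error 0.12, adjusted p = 1.44e-11), Fcer2a, the low-affinity IgE receptor CD23, by 1.18 (adjusted p = 9.32e-11) and Cr2, the complement receptor CD21, by 1.077 (adjusted p = 6.44e-05) on the log2 scale. Without WT vehicle replicate 2 the log2 fold changes were 2.21, 1.21 and 1.49. The 4 macrophage genes described below summed to 250 to 297 CPM in WT vehicle and 2122 to 2151 in WT bleo. Which cells carried the rise of Pou2f2 was not tested. Of the 16 plasma cell genes 7 fell and none rose, with a median of -0.70, or -0.42 without that library.

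Jchain, which links the chains of IgA and IgM polymers, had 9735, 15642 and 10850 CPM in WT vehicle, 14519 to 18162 among Pear1-/- vehicle libraries, 977 to 1049 in WT bleo, with 7794 to 8101 in Pear1-/- bleo. Its log2 fold change between WT bleo and WT vehicle was -3.50 (standard error 0.22, adjusted p = 8.97e-07), and -3.12 without WT vehicle replicate 2. Tnfrsf17, the plasma cell survival receptor BCMA, fell by 2.62 (adjusted p = 4.42e-07) and Derl3, of the endoplasmic reticulum, by 2.21 (adjusted p = 0.0022). Without that library their log2 fold changes were -2.15 and -1.38, so that the fall of Derl3 was much smaller. Mzb1, a chaperone of antibody-secreting cells, fell by 1.53, Eaf2 by 1.54, Txndc5 by 1.27 and Xbp1, a transcription factor of secretory cells, by 1.01, and without that library the values were -1.07, -1.20, -1.04 and -0.73. The other 9 genes of the list did not pass. Among them Creld2, Sec11c and Fkbp11 had log2 fold changes of -0.41, -0.51 and -0.81, which without that library were -0.03, -0.19 and -0.57. Sdc1, Prdm1 and Irf4 had -0.24, 0.14 and 0.01, which without it were 0.03, 0.53 and 0.10.

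The count for the 39 listed genes in this comparison depended on 1 library. It was 12 of the 34 tested with all libraries, 3 higher and 9 lower, where 33.8% of all genes were called. It was 19 of the 37 tested without WT vehicle replicate 2, 9 higher and 10 lower, where 45% of all genes were called. Without that library Ms4a1, Bank1, Cd22, Cd37, Fcmr and Tent5c were also called higher, Xbp1 and Vpreb3 were no longer called, and Dntt, Igll1 and Rag2, which then passed the filter, were called lower. Rag1, the recombinase gene of light and heavy chain rearrangement, had 11, 14 and 21 counts in WT vehicle, 5 to 12 among Pear1-/- vehicle libraries, 0 in each WT bleo library and at most 1 in Pear1-/- bleo, and its fall was called in both bleo comparisons, as was that of Vpreb3.

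Between Pear1-/- bleo and WT bleo, 6 of the 16 B cell genes fell and none rose, and 8 of the 16 plasma cell genes rose and 1 fell, where 8.8% of all genes were called lower and 6.22% higher. The medians were -0.70 and 1.02 against -0.01 for all genes. Fcer2a fell by 1.77 (standard error 0.078, adjusted p = 1.83e-12), Pou2f2 by 1.40, Cr2 by 1.35, Pax5 by 1.11, Bank1 by 1.10 and Fcmr by 1.02. Jchain rose by 2.96 (standard error 0.21, adjusted p = 5.18e-06), Derl3 by 2.03, Eaf2 by 1.54, Mzb1 by 1.49, Fkbp11 by 1.45, Tnfrsf17 by 1.44, Txndc5 by 1.34 and Sdc1, the syndecan CD138, by 1.32. Tent5c, a poly(A) polymerase of plasma cells, fell by 1.002 (adjusted p = 0.000344). The 6 fibroblast genes together had 11992 to 12111 CPM in WT bleo and 31995 to 32758 in Pear1-/- bleo. Which cells carried the rises of the plasma cell list was not tested. Among the most abundant B cell genes, Cd79a, Cd79b and Ms4a1 did not pass the criteria, with log2 fold changes of -0.26, -0.65 and -0.40.

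Between Pear1-/- bleo and Pear1-/- vehicle 1 gene of the B cell list, Ebf1, fell by 1.54 (adjusted p = 1.17e-10). The plasma cell list had 3 falls, Tnfrsf17 by 1.62, Jchain by 1.12 and Derl3 by 1.12. Rag1 and Vpreb3 were called lower, the latter by a log2 fold change of -1.09. With 19.3% of all genes called lower, the counts of 1 and 3 of 16 were at or under the background. Without WT vehicle replicate 2, Ebf1 was also lower in WT bleo than in WT vehicle, at -0.70 on the log2 scale. The median of the B cell list was 0.95 there, so Ebf1 did not follow its list. Which cells carried the fall of Ebf1 was not tested. Between Pear1-/- vehicle and WT vehicle none of the 34 tested genes passed, and 8 of 37 passed without WT vehicle replicate 2, 4 higher and 4 lower. In that fit 24.2% of all genes were called and 2.86% were called higher. The 4 higher ones were the plasma cell genes Mzb1 and Derl3, the B cell gene Cd79a and Vpreb3, and the 4 lower ones, Rag1, Rag2, Dntt and Igll1, were all from the rearrangement and pre-B list.

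Markers of other cells also differed between the groups, and most did not follow the order of the Igkv reads. The summed level of 4 macrophage genes was 250 to 297 CPM in WT vehicle, 232 to 249 among Pear1-/- vehicle libraries, 2122 to 2151 in WT bleo, with 800 to 828 in Pear1-/- bleo. The 16 B cell genes together had 784 to 1085, 1061 to 1090, 1235 to 1269 and 783 to 809 CPM in the same order, and the 16 plasma cell genes had 11679 to 18243, 17125 to 20780, 2284 to 2345 and 9932 to 10182 CPM. Jchain alone made up most of the plasma cell sum in every group but WT bleo, so the gaps in that sum are largely those of Jchain. The 6 fibroblast genes had 14241 to 14712, 14570 to 14870, 11992 to 12111 and 31995 to 32758 CPM, and the 4 T cell genes had 83.5 to 96.8, 100.2 to 112.7, 49.4 to 57.7 and 38.7 to 40.1 CPM. The 2 epithelial genes had 1696 to 1871, 1807 to 2067, 733 to 751 and 194 to 203 CPM, and the 2 endothelial genes 125 to 133, 127 to 136, 82.8 to 88.7 and 78.4 to 81.0 CPM. No gene of these lists was at or under 3 counts in all libraries. The part of cell composition in the Igkv results was not tested.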

How the data were processed

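The authors sorted Pdgfra+ cells, made full-length cDNA with the SMART-Seq v4 kit, aligned paired reads to GRCm38 with HISAT2 and deposited a table of read counts per gene, and a second table whose signal is those counts divided by a DESeq2 size factor per library, checked here and otherwise not used. The program that counted the reads is not given in the sources used here. Of the samples' columns, all were mapped to their labels.

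Shares are the counts of an Igkv gene divided by all Igkv counts of the library. CPM are counts scaled to the total of counted reads. edgeR 4.0.16 with R 4.3.3 (TMM, filterByExpr, robust quasi-likelihood F test, two-sided, Benjamini-Hochberg over all genes tested) was fitted with one mean per group over 12 libraries, and was tested on simulated data. limma 3.58.1 on log2(count divided by size factor + 1) and DESeq2 1.42.0 were alternatives. Gene positions and sequences came from GENCODE M21. Members, lists and tests were chosen with earlier results of these data known. The genes named are the 20 with the largest mean share, the first 3 of each library, and the 3 largest rises and falls of share per comparison, with their closest relatives in sequence, and of the B cell and plasma cell lists the 4 most abundant and those whose calls are described. The values of 1 listed gene are not reported here. Symbols were matched by identifier, and Tent5c is listed in the table under an older symbol.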

Additional observations from a re-analysis of the deposited data

Results flagged for a closer look

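For 12 of the 31 B cell and plasma cell genes tested and reported here the effect of bleo differed between the libraries labelled Pear1-/- and WT, by the interaction term of edgeR's quasi-likelihood fit at a fold above 2 and an adjusted p under 0.05. Of all 17418 genes tested 15.5% passed these criteria. The values are the log2 fold change with bleo in Pear1-/- minus that in WT, over 3 libraries per group. Among B cell genes they were -1.31 for Bank1, -1.001 for Cd79b, -1.84 for Cr2, -1.89 for Fcer2a, -1.07 for Fcmr, -1.23 for Pax5 and -1.54 for Pou2f2. Among plasma cell genes they were 2.38 for Jchain, 1.34 for Fkbp11, 1.14 for Eaf2 and 1.01 for Txndc5, and -1.54 for Tent5c. The adjusted p ranged from 4.69e-10 for Fcer2a to 0.0026 for Cd79b.

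Without WT vehicle replicate 2, the library whose Igkv usage went with Pear1-/- vehicle, Jchain had 1.98 and Fcer2a -1.94, and 10 of the 12 still passed, where 21.9% of all 20405 genes tested did. Eaf2 at 0.78 and Txndc5 at 0.76 then fell short of the fold, and other B cell genes, Blk, Cd22, Cd37, Cd79a, Fcrla, Ms4a1 and Spib, passed.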

How the results depend on the processing

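Of the levels, effective numbers, usage distances and counts recomputed under the alternatives, 1 changed direction, and the sign of single listed genes was not counted here. The effective number of WT bleo minus that of WT vehicle, 8.504 with all genes, was -0.21 with the leading gene of each library left out, both within the SD of 16.2 of WT vehicle. With all genes it was 17.9 without WT vehicle replicate 2, 3.59 without replicate 1 and 4.06 without replicate 3. With the leading genes left out and without replicate 2, the means were 39.8 in WT bleo and 35.9 in WT vehicle, so the direction did not change there. Summed over subgroups, the difference of the effective number was 1.76 between Pear1-/- vehicle and WT vehicle and 2.37 between Pear1-/- bleo and WT bleo, counted in subgroups, and with the leading gene of each library left out that between Pear1-/- bleo and Pear1-/- vehicle was 3.10 in place of 1.65. As a Hellinger distance the mean usage distance was 0.436 for WT bleo against WT vehicle, 0.237 for Pear1-/- bleo against Pear1-/- vehicle and 0.342 for Pear1-/- bleo against WT bleo, and over subgroups the Bray-Curtis distances were 0.356, 0.143 and 0.256. Without the leading genes the last was 0.379.

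Of Igkv genes called between Pear1-/- vehicle and WT vehicle there were 6 with DESeq2, 0 with limma, 10 without a filter on low counts and 0 with only the 6 libraries of both groups, and 1 gene of the B cell, plasma cell and rearrangement lists without the filter. Of all genes 1.62%, 0.161%, 7.16% and 0% were called in these 4 fits. Between Pear1-/- bleo and Pear1-/- vehicle 45 were called with only the 6 libraries of both groups, where 25.4% of all genes were. Leaving out each library in turn gave 0 to 74 Igkv genes between the vehicle groups, 21 to 45 between the Pear1-/- groups, 52 to 72 for WT bleo against WT vehicle and 48 to 78 between the bleo groups, and 0 to 8, 4 to 8, 11 to 19 and 14 to 17 listed genes in the same order. The share of all genes called in these fits was 0% to 24.2%, 26.1% to 32.7%, 32.8% to 45% and 11.6% to 16%, and between the vehicle groups it was 0% in each fit but that without WT vehicle replicate 2. The fit without WT vehicle replicate 2 for comparisons it has no part in was chosen after seeing the data.

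Replicate numbers did not pair the libraries: deviations of same-numbered libraries correlated at -0.16 to 0.0997 over 18 pairs. With the replicate number as a block 54, 26, 2 and 59 Igkv genes were called for WT bleo against WT vehicle, the Pear1-/- groups, the vehicle groups and the bleo groups, and 11, 5, 0 and 15 listed genes, where 33.6%, 27.7%, 2.95% and 14.8% of all genes were. Depth limits the genes at or under 3 counts, and 3 libraries per group limit each call.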

Other observations

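Light chain V genes outside kappa were few in these libraries. Lambda V (Iglv) genes had 5751, 13896 and 5793 reads in WT vehicle, 14507 to 15125 in Pear1-/- vehicle, 2568 to 2865 in WT bleo and 11074 to 12751 in Pear1-/- bleo, so that WT vehicle replicate 2 again had a value near Pear1-/- vehicle. The constant genes of IgG2b and IgG1 had the same order within WT vehicle. Ighg2b had 532.5, 1098 and 484 CPM in its replicates 1, 2 and 3 and 1057 to 1133 in Pear1-/- vehicle, and Ighg1 had 0.746, 20.7 and 0.568 CPM against 18.6 to 22.7. Among genes of other cells, Dcn, a proteoglycan of fibroblasts, had 2393, 4355 and 2462 CPM in WT vehicle and 4184 to 4540 in Pear1-/- vehicle, so the split of the vehicle libraries was not limited to immunoglobulin genes. Dcn was chosen after its values were seen, and the sum of the 6 fibroblast genes that holds it was 14466, 14712 and 14241 CPM in WT vehicle. Col1a1 and Col3a1 went the other way, with 4118, 3405 and 3996 CPM and 4708, 3974 and 4534 CPM in replicates 1, 2 and 3.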
